A study of Mus musculus with 8 samples.

Results

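The genes described are those of the mitochondrial ribosomal proteins. They were chosen by symbol alone, as every protein-coding gene of the liver count table whose GRCm38 symbol begins with Mrpl or Mrps followed by a digit, and no measured value entered the choice. There were 77 such genes among 18095 genes in the table, of which 13939 are protein-coding. All 77 passed the filter on low counts, with 135 to 3120 counts in any library. Mrpl53, whose symbol also has this form, was not analysed here.

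Liver RNA was sequenced from 4 HFD WT and 4 HFD Inpp4b-/- male mice aged 12 weeks, 1 library per sample, to ask how the loss of INPP4B alters liver expression under a high fat diet. INPP4B is a phosphatase of phosphoinositide lipids. Both genotypes shared the high fat diet (HFD), which the mothers had also received before mating, while pregnant and while nursing. The labels give C57BL/6 as the strain background and the study's methods give FVB, and the mutant allele is named only as Inpp4b-/-. The study counts 4 mice per genotype, so each library is taken as a separate mouse, and litters are not given in the sources used here.

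The gene targeted in the knockout was counted 6, 20, 5 and 8 times in HFD WT replicates 1 to 4 and 33, 10, 9 and 14 times in the libraries labelled HFD Inpp4b-/-. The libraries labelled as knockout thus held no fewer reads of it (log2 difference 0.37, two-sided exact permutation test p = 0.486, n = 4 per group), and every direction given below rests on the labels alone. Libraries of HFD WT held 25893430 to 31427831 counts in total, and those labelled HFD Inpp4b-/- held 32738435 to 36662531. These ranges do not overlap, so depth and genotype cannot be told apart. Over all 14866 genes tested with edgeR's quasi-likelihood test, 174 were called, which needed a Benjamini-Hochberg adjusted p below 0.10 together with a fold over 1.3. Of these 82 were higher and 92 lower in HFD Inpp4b-/-.

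Mitochondria translate the few proteins encoded by their own DNA on a ribosome of their own, the mitoribosome, which is built from rRNA transcribed inside the mitochondrion and from proteins encoded in the nucleus and imported. Some of these proteins have counterparts in bacterial ribosomes and others are found only in mitochondria. All proteins that mammalian mitoribosomes make are core subunits of the respiratory chain or of ATP synthase, on which hepatocytes depend to oxidise fatty acids.

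Genes of mitochondrial proteins are known to be read from promoters without a TATA box that often carry sites for NRF1, YY1 and ETS family factors such as GABPA. RefSeq promoter windows (GRCm38.p6, from 250 bases before to 50 bases after each start site) were matched to 68 of the 77 genes by symbol, in 74 windows. The 5 promoters printed here belong to genes at both ends of the range of genotype differences described below. They show matches to the 3 site types, a TATAAA match and the lack of them. Each line runs 5′ to 3′ on the strand of the gene from 150 bases before to 30 bases after the start site. Capitals mark a match on either strand to CCGGAAG (ETS), GCNTGCGC (NRF1), AANATGGC (YY1) or TATAAA (the letters of a TATA box). Mrps25 (chr6:92183994-92184173, minus strand) holds none of these. Mrpl27 (chr11:94653641-94653820, plus strand) and Mrps18a (chr17:46110854-46111033, plus strand) each hold an ETS and a YY1 match. Mrps9 (chr1:42851083-42851262, plus strand) holds an NRF1 match at its start site. Mrpl16 (chr19:11770265-11770444, plus strand) holds a TATAAA match at bases -68 to -63 from its start site.
Mrps25: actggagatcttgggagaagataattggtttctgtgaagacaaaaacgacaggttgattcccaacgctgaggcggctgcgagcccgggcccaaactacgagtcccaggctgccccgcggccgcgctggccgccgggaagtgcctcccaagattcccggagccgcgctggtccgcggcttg
Mrpl27: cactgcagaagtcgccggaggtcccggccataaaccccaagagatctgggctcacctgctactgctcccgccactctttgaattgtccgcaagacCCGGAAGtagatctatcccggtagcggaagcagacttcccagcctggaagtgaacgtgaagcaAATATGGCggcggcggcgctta
Mrps9: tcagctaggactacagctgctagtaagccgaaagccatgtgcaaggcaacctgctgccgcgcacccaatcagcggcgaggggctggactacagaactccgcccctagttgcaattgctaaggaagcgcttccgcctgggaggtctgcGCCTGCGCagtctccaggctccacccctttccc
Mrpl16: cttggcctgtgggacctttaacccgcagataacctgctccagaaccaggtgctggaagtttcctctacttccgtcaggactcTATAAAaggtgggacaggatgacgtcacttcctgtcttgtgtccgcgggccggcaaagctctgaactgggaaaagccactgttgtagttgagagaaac
Mrps18a: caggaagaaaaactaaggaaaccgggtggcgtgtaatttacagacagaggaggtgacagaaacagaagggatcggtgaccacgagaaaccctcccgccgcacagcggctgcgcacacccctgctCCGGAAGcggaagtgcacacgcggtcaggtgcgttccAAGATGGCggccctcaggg

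CCGGAAG was found in 33.8% of the 74 windows of mitochondrial ribosomal protein genes and in 8.86% of all 32851 windows. GCNTGCGC was found in 29.7% of their windows against 9.95% of all windows, and AANATGGC in 28.4% against 6.05%. TATAAA stood in 6.76% of their windows and in 13.6% of all windows. The 4 letter strings do not contain one another, and they were settled on after the shares of several spellings had been seen. At least 1 of the first 3 strings was present in 49 of the 68 genes, and none of the genes held all 3. The log2 fold changes of the 25 genes with an ETS match (median 0.071) and of the others (median 0.090) covered overlapping ranges, as did those of the 22 genes with an NRF1 match (0.085 against 0.092) and of the 21 with a YY1 match (0.081 against 0.089). A match to these letters is a description of the window and not a binding site.

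Mitochondrial ribosomal protein transcripts were at nearly the same level in both genotypes. None of the 77 genes passed the test in either direction, where 1.17% of all tested genes did (0.552% higher and 0.619% lower), and the smallest adjusted p among them was 0.173 (Mrpl48, edgeR's quasi-likelihood test). The log2 fold changes of HFD Inpp4b-/- over HFD WT ran from -0.33 for Mrpl16 to 0.41 for Mrps25. Their median was 0.083, a fold of 1.06, against a median of 0.0027 for all tested genes. Of the 77 log2 fold changes, 56 lay above 0 (72.7%) and 21 below, while 50.4% of all tested genes lay above 0. In whole liver, fewer cells of a type and less RNA per cell cannot be told apart.

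The absence of calls went with narrow intervals. The median coefficient of variation of a mitochondrial ribosomal protein gene was 8.01% in HFD WT and 8.10% in HFD Inpp4b-/-, against 18.5% and 15.4% over all tested genes. The 77 genes were also counted more, with a median level of 29.0 CPM (defined below) against 11.9 CPM for all tested genes. The part of level in the narrow intervals was not tested. For 56 of the 77 genes the 95% interval of the difference stayed within a 1.3-fold change either way, which held for 23.4% of all tested genes. For all 77 it stayed within 2-fold, against 69.9% of all tested genes. Only Mrps25 had a fold beyond 1.3 in the estimate itself, compared with 23.3% of tested genes. At an unadjusted p under 0.05, 7 of the 77 genes passed (6 higher and 1 lower), beside 13.9% of all tested genes (6.8% higher and 7.14% lower). DESeq2 called 1 of the 77 genes, Mrps25, where it called 4.04% of the genes it tested.

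**Figure D1:**
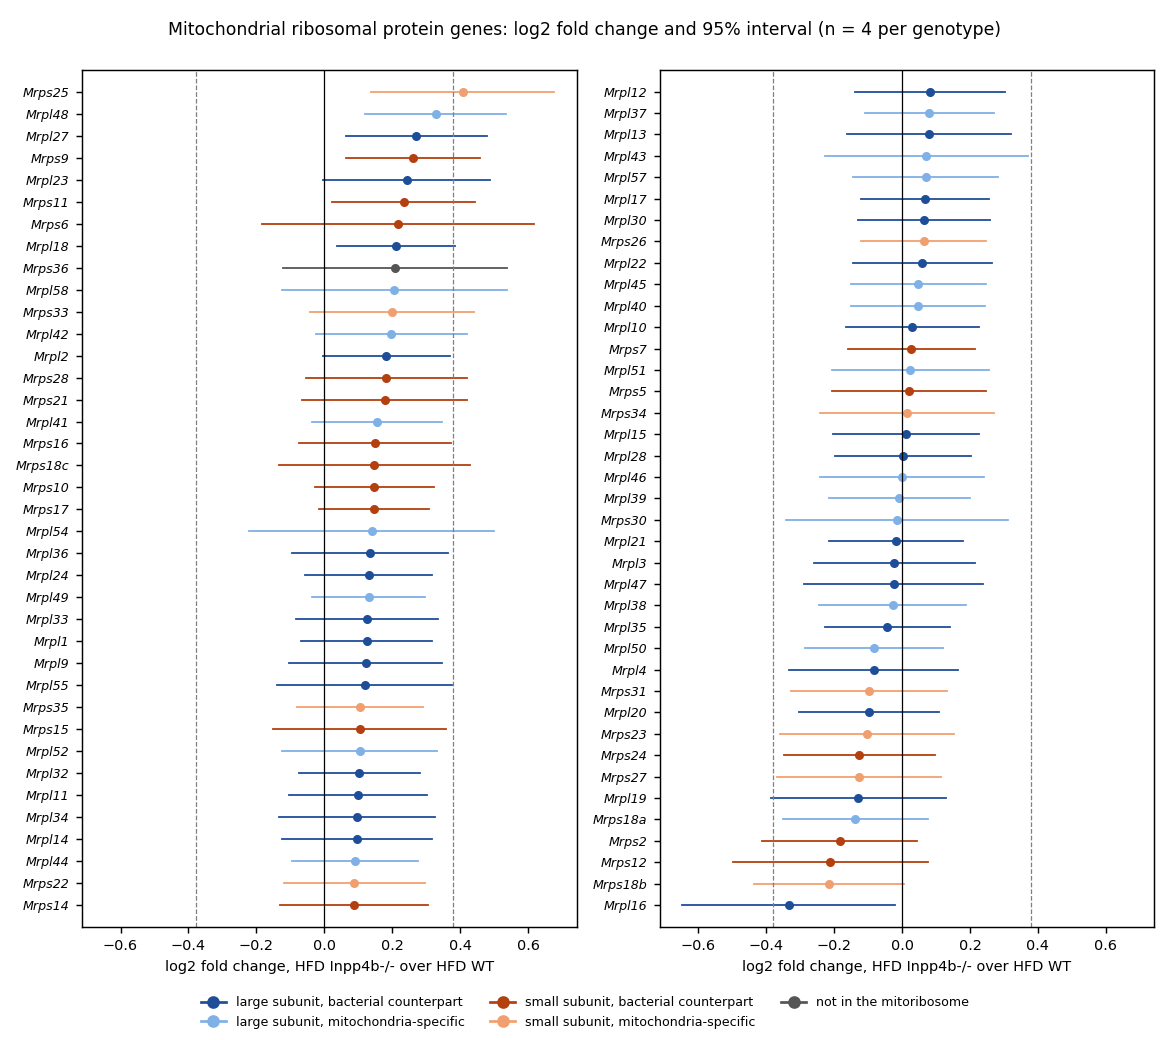
Log2 fold change of HFD Inpp4b-/- over HFD WT for each of the 77 genes with its 95% interval from edgeR (n = 4 per genotype), ordered by value and coloured by ribosomal subunit and by the presence of a bacterial counterpart; dashed lines mark a 1.3-fold change either way. The estimates run from -0.33 (Mrpl16) to 0.41 (Mrps25), 56 of them lie above 0, and only that of Mrps25 lies beyond a dashed line.

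The 4 values of each genotype did not overlap for 10 of the 77 genes, 9 with HFD Inpp4b-/- above and 1 below. Over all tested genes the values did not overlap for 8.72%, with 4.63% above and 4.09% below. The 9 genes above were Mrpl48, Mrps25, Mrps9, Mrpl27, Mrpl18, Mrps11, Mrps17, Mrpl41 and Mrpl49, and the gene below was Mrps18b.

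Large subunit proteins with a bacterial counterpart are encoded by 30 of the genes. Of their log2 fold changes 22 lay above 0 and the median was 0.081. Mrpl27 (ENSMUSG00000024414, GRCm38 chr11:94653767-94660089, plus strand) stood at the top of this class. Its protein is the counterpart of bacterial L27, which reaches the site where peptide bonds form. HFD WT replicates 1 to 4 had 34.1, 35.3, 36.6 and 33.7 CPM (counts relative to the TMM-normalized library total) of Mrpl27. HFD Inpp4b-/- replicates 1 to 4 had 37.7, 38.8, 45.4 and 46.6 CPM. Every HFD Inpp4b-/- value lay above every HFD WT value, and replicates 3 and 4 were the highest. The log2 fold change was 0.27 ± 0.093 (SE), with an adjusted p of 0.247 by edgeR's quasi-likelihood test.

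Mrpl18, whose protein belongs to the family that binds 5S rRNA in bacteria, had 37.2 to 40.4 CPM in HFD WT and 40.9 to 47.5 CPM in HFD Inpp4b-/-. The groups were adjacent without overlap, and the log2 fold change was 0.21 ± 0.078 (edgeR adjusted p = 0.274). Mrpl23, a protein of the family at the mouth of the exit tunnel, had a log2 fold change of 0.24, but HFD WT replicate 2 (30.7 CPM) lay above HFD Inpp4b-/- replicates 1 and 2 (27.9 and 29.6 CPM). Mrpl12, the counterpart of the bacterial stalk protein L7/L12 that also binds mitochondrial RNA polymerase, had 40.7 to 51.4 CPM in HFD WT and 44.6 to 53.2 CPM in HFD Inpp4b-/-. The values of Mrpl12 overlapped over most of their range, with a log2 fold change of 0.083 and a 95% interval from -0.14 to 0.30.

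Mrpl16 (ENSMUSG00000024683, chr19:11770391-11774960, plus strand) had the lowest log2 fold change of the 77 genes. Its bacterial counterpart helps to position tRNA at the peptidyl transferase centre. HFD WT replicates 1 to 4 had 41.2, 32.1, 32.4 and 36.8 CPM of Mrpl16, and HFD Inpp4b-/- replicates 1 to 4 had 26.1, 22.9, 35.2 and 28.9 CPM. Replicate 3 of HFD Inpp4b-/- lay within the HFD WT range and the other 3 lay below it. The log2 fold change was -0.33 ± 0.14 (SE), with an adjusted p of 0.327 by edgeR's quasi-likelihood test and a 95% interval from -0.65 to -0.020.

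The large subunit has 20 further members without a bacterial counterpart, Mrps18a and Mrps30 among them despite their symbols. The median of these 20 was 0.070, and 14 lay above 0. Mrpl48 (ENSMUSG00000030706, chr7:100545751-100608301, minus strand), which encodes a protein of the central protuberance, had the highest log2 fold change of the class. Its level was 19.7, 20.9, 17.9 and 21.3 CPM in HFD WT replicates 1 to 4 and 23.1, 24.8, 25.2 and 27.2 CPM in HFD Inpp4b-/- replicates 1 to 4. No value of one genotype fell within the range of the other. The log2 fold change was 0.33 ± 0.093 (SE), and its adjusted p of 0.173 missed the threshold in edgeR's quasi-likelihood test. Over all alternatives the adjusted p of Mrpl48 ranged from 0.0878 to 0.398. Its log2 fold change, 0.28 to 0.37 in these fits, stayed short of a 1.3-fold change. Mrpl38, also of the central protuberance, had the highest CPM of the 77 genes, with 74.9 to 98.3 CPM in HFD WT and 81.9 to 92.4 CPM in HFD Inpp4b-/-. Its HFD Inpp4b-/- values lay entirely inside the HFD WT range, and its log2 fold change was -0.028.

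Among the 16 small subunit genes with a bacterial counterpart, 13 lay above 0 and the median was 0.15, the highest of the 4 structural classes. No test compared the classes, whose ranges overlapped. Mrps9 (ENSMUSG00000060679, chr1:42851233-42905683, plus strand) encodes the counterpart of bacterial S9, whose tail contacts the tRNA in the peptidyl site. It had 18.5, 18.1, 20.7 and 19.3 CPM in HFD WT replicates 1 to 4, and 24.6, 21.96, 21.7 and 23.6 CPM in HFD Inpp4b-/- replicates 1 to 4. The groups did not overlap, and here HFD Inpp4b-/- replicate 1 was the highest. The log2 fold change of Mrps9 was 0.26 ± 0.088 (SE), with an adjusted p of 0.239 by edgeR's quasi-likelihood test.

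Mrps12 and Mrps2 had the lowest values of this class, at -0.21 and -0.18. Mrps12, the counterpart of the bacterial decoding protein S12, had 23.1, 18.3, 21.5 and 25.7 CPM in HFD WT replicates 1 to 4 and 17.3, 19.8, 17.3 and 22.2 CPM in HFD Inpp4b-/- replicates 1 to 4. The values of Mrps12 overlapped, since HFD WT replicate 2 lay below 2 of the HFD Inpp4b-/- libraries. For Mrps2, HFD Inpp4b-/- replicate 1 was the lowest at 32.1 CPM, and replicate 3 at 43.8 CPM lay within the HFD WT range of 40.4 to 45.6 CPM. With 1 library left out at a time, the value of Mrps12 ranged from -0.30 to -0.13 and that of Mrps2 from -0.25 to -0.11.

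The 10 small subunit genes without a bacterial counterpart held Mrps25, with the highest log2 fold change of all 77 genes, and Mrps18b. Their median was 0.039, and 6 lay above 0. Mrps25 (ENSMUSG00000014551, chr6:92169525-92184033, minus strand) had 11.5, 13.8, 14.2 and 11.9 CPM in HFD WT replicates 1 to 4. In HFD Inpp4b-/- it had 16.4, 14.7, 18.5 and 18.6 CPM. The lowest HFD Inpp4b-/- value, replicate 2, exceeded the highest HFD WT value by less than the SD of either group (1.36 CPM in HFD WT and 1.85 CPM in HFD Inpp4b-/-). The log2 fold change was 0.41 ± 0.12 (SE), a fold of 1.33, with an adjusted p of 0.193 by edgeR's quasi-likelihood test. DESeq2 gave 0.40 with an adjusted p of 0.0896, and its adjusted p over all alternatives ranged from 0.0896 to 0.421. Of the exonic bases of Mrps25, 69.8% are shared with Nr2c2 on the opposite strand. The strand setting of the counting is not given in the sources used here, so how reads of the shared bases were credited is not known. Nr2c2 itself had a log2 fold change of -0.30 (edgeR adjusted p = 0.524).

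**Figure D2:**
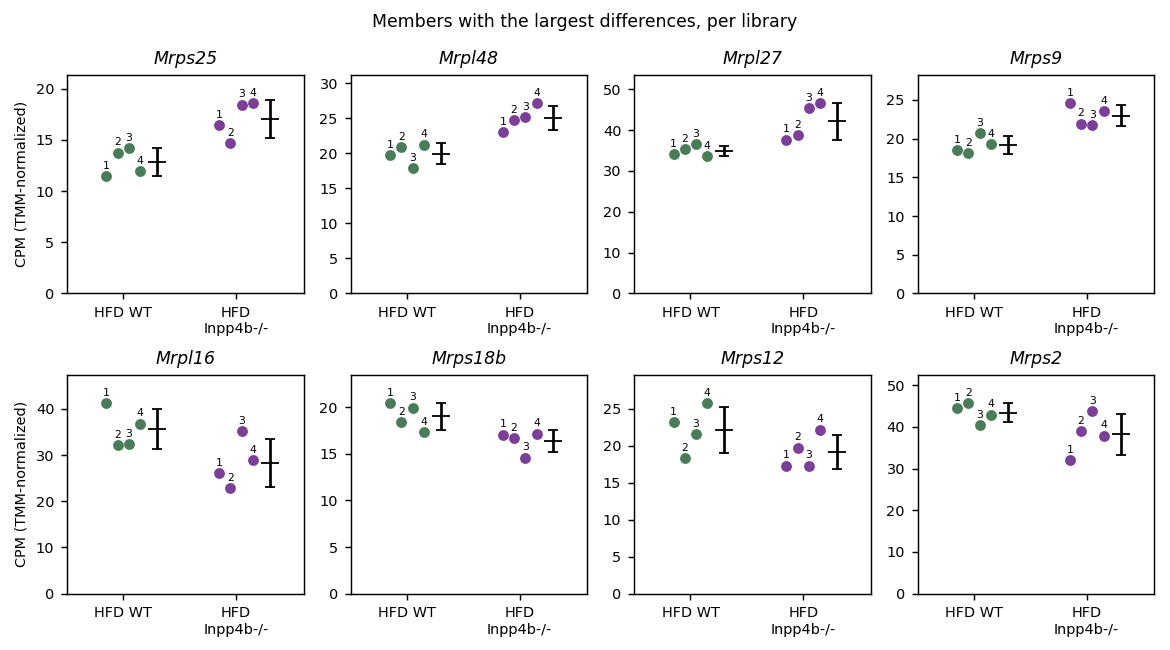
TMM-normalized CPM in each library (numbers give the replicate) with the mean and SD per genotype, for 4 genes with the highest log2 fold changes (top row) and 4 with the lowest (bottom row). In the top row every HFD Inpp4b-/- value lies above every HFD WT value, whereas in the bottom row the groups overlap for Mrpl16, Mrps12 and Mrps2 and are adjacent for Mrps18b.

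The 3 Mrps18 paralogs encode proteins at different places of the mitoribosome, Mrps18b and Mrps18c in the small subunit and Mrps18a in the large one. Mrps18b had 17.3 to 20.4 CPM in HFD WT and 14.6 to 17.2 CPM in HFD Inpp4b-/-, which did not overlap, with a log2 fold change of -0.21 ± 0.099 (edgeR adjusted p = 0.373). An antisense gene, Gm16279, shares 30.5% of its exonic bases. Mrps18a had 25.1 to 30.1 CPM in HFD WT and 22.9 to 27.8 CPM in HFD Inpp4b-/- (log2 fold change -0.14). Mrps18c, the counterpart of bacterial S18, had 8.56 to 11.8 CPM and 10.8 to 12.4 CPM in the same order (log2 fold change 0.15). The estimates of the paralogs thus had unlike signs, but none of the 3 passed the test. Mrps30 had a log2 fold change of -0.015 and a 95% interval from -0.34 to 0.31, and HFD WT replicate 4 alone (23.3 CPM) lay above all other libraries (14.5 to 19.7 CPM).

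Mrps36, despite its symbol, is now known as a component of the alpha-ketoglutarate dehydrogenase complex of the citric acid cycle. It had 10.4 to 15.6 CPM in HFD WT and 12.9 to 16.0 CPM in HFD Inpp4b-/-, with a log2 fold change of 0.21 and a 95% interval from -0.12 to 0.54. Mrps31 and Mrpl34 lie on chromosome 8, as does Inpp4b. Their log2 fold changes were -0.096 for Mrps31 and 0.096 for Mrpl34, and both had overlapping groups.

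Per kilobase of the principal transcript, the level of the 77 genes covered a 50.8-fold range. The highest were Mrpl52 (114 CPM per kilobase, averaged over both genotypes), Mrps21 (82.5), Mrpl14 (73.4), Mrpl34 (66.4) and Mrpl38 (61.8). The lowest were Mrpl19 (2.25), Mrps25 (2.46), Mrpl47 (4.34), Mrps26 (5.21) and Mrpl48 (5.25). The middle of the distribution was much tighter, with a median of 19.0 CPM per kilobase and quartiles of 11.0 and 32.6. All of the 5 lowest have annotated transcripts of 3364 to 6073 bases, whereas the 5 highest have transcripts of 418 to 1411 bases. Which transcripts of these genes the liver makes was not measured here. With all exons merged as the length, 4 of the 5 highest and 3 of the 5 lowest stayed in place. The sum of the large subunit genes over that of the small subunit genes, in CPM, was 2.17 to 2.34 in the HFD WT libraries and 2.27 to 2.33 in those labelled HFD Inpp4b-/-, so the balance of the subunits overlapped between genotypes.

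Summed over the 77 genes, mitochondrial ribosomal protein transcripts made up 2416, 2299, 2382 and 2424 CPM in HFD WT replicates 1 to 4. The sums in HFD Inpp4b-/- replicates 1 to 4 were 2359, 2363, 2645 and 2552 CPM. In these sums, only replicates 3 and 4 of HFD Inpp4b-/- lay above the HFD WT range, and replicates 1 and 2 lay within it. The means were 2381 ± 57.1 CPM in HFD WT and 2480 ± 142 CPM in HFD Inpp4b-/- (SD, n = 4 each). HFD Inpp4b-/- replicate 3 had the highest value of the 8 libraries for 28 of the 77 genes and replicate 4 for 17, while HFD WT replicate 2 had the lowest for 23. Leaving out any of these 3 libraries lowered the median of the 77 genes. It was 0.058 without HFD Inpp4b-/- replicate 3, 0.066 without replicate 4 and 0.049 without HFD WT replicate 2. The other libraries gave 0.079 to 0.104, the highest without HFD Inpp4b-/- replicate 2. The TMM factors of HFD Inpp4b-/- replicates 3 and 4 (0.950 and 0.972) were below those of replicates 1 and 2 (1.03 and 1.06). As a share of raw counts, the 77 genes made up 0.233, 0.232, 0.243 and 0.244% in HFD WT replicates 1 to 4. The shares were 0.242, 0.250, 0.251 and 0.248% in HFD Inpp4b-/- replicates 1 to 4. On this measure replicates 2, 3 and 4 of HFD Inpp4b-/- lay above the HFD WT range and replicate 1 within it. The part of the TMM scaling in the result was not tested.

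**Figure D3:**
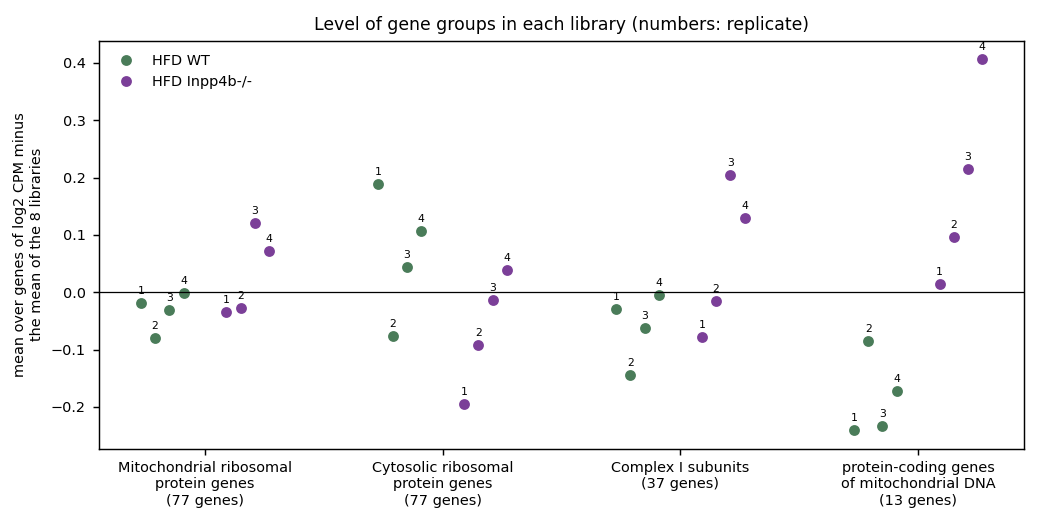
Mean over the genes of a group of log2 CPM minus the mean of the 8 libraries, per library (numbers give the replicate), for the 77 mitochondrial ribosomal protein genes, the 77 cytosolic ribosomal protein genes, 37 complex I subunit genes and the 13 protein-coding genes of mitochondrial DNA. For mitochondrial ribosomal proteins, HFD Inpp4b-/- replicates 3 and 4 are the highest (0.12 and 0.072) and replicates 1 and 2 lie among the HFD WT libraries.

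The proteins of the cytosolic ribosome, which translates nuclear mRNAs, offered a group of the same size and of related function. None of its 77 tested genes passed the test, their median log2 fold change was -0.12, and 71 of the 77 lay below 0. Complex I of the respiratory chain combines subunits made by the mitoribosome with imported ones. Of 37 nuclear genes chosen by symbol as its subunits, without a check of each protein's place, 36 lay above 0 with a median of 0.14. The test was passed by 2 of them, Ndufa13 higher (log2 fold change 0.50, edgeR adjusted p = 0.0503) and Ndufs5 lower (-1.51, edgeR adjusted p = 0.0117). The median of the mitochondrial ribosomal protein genes lay between those of these groups. No test was made of the differences between the groups. By library, complex I had its highest means in the same 2 libraries as the mitochondrial ribosomal proteins, 0.21 and 0.13 in HFD Inpp4b-/- replicates 3 and 4, and its lowest, -0.14, in HFD WT replicate 2.

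**Figure D4:**
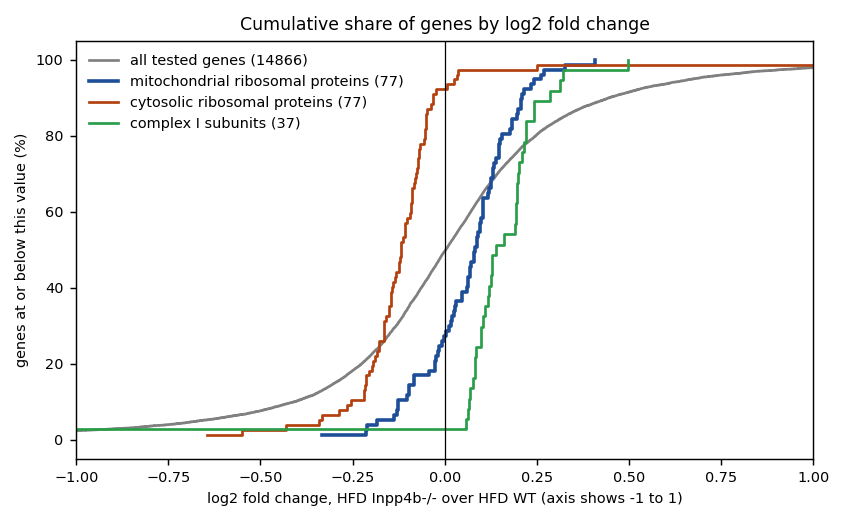
Cumulative share of genes at or below each log2 fold change of HFD Inpp4b-/- over HFD WT for all 14866 tested genes, the 77 mitochondrial and 77 cytosolic ribosomal protein genes and 37 complex I subunit genes. The curve of the mitochondrial ribosomal proteins is steeper than that of all genes and lies to its right below a log2 fold change of about 0.1, between the cytosolic group and complex I.

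The RNAs that the mitoribosome reads and is built on come from mitochondrial DNA. All 13 of its protein-coding genes had a log2 fold change above 0, with a median of 0.36, and none passed the test. At an unadjusted p under 0.05, 7 of the 13 passed, all higher, beside 13.9% of all tested genes (6.8% higher). Their largest value was 0.83 for mt-Atp6 (36.7 to 60.0 CPM in HFD WT, 46.6 to 128 CPM in HFD Inpp4b-/-, edgeR adjusted p = 0.254) and their smallest 0.022 for mt-Nd3. The value of mt-Atp6 was 0.50 without HFD Inpp4b-/- replicate 2, which alone had 128 CPM where the other 3 had 46.6 to 83.5. Summed, the 13 genes had 46449 to 54497 CPM in HFD WT and 53159 to 74987 CPM in HFD Inpp4b-/-, and the sums overlapped in HFD WT replicate 2 and HFD Inpp4b-/- replicate 2. The mean over the 13 genes on the log2 scale did not overlap, at -0.24 to -0.084 in the HFD WT libraries and 0.014 to 0.41 in those labelled HFD Inpp4b-/-. That mean weighs each gene alike, from mt-Atp8 at 0.826 CPM in HFD WT to mt-Co1 at 19027 CPM. The median over the 13 genes did overlap, at -0.050 in HFD Inpp4b-/- replicate 2 and -0.042 in HFD WT replicate 2. Mitochondrial genes have near-identical copies in the nuclear genome, so their counts are uncertain. The mitochondrial rRNA genes mt-Rnr1 and mt-Rnr2 had log2 fold changes of -0.11 and -0.19, but the labels state that rRNA was removed with the Ribo-Zero kit, so these counts are what the removal left, and both signs turned without HFD WT replicate 4.

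Mitoribosomal proteins with other symbols are no members of the list and were looked at beside it. Of 5 such genes, 3 lay above 0 and the median was 0.089. Dap3, a GTP-binding protein of the small subunit, had the highest value (0.23, 31.3 to 39.9 CPM in HFD WT and 36.4 to 46.8 CPM in HFD Inpp4b-/-). Chchd1 and Aurkaip1, also of the small subunit, had values of 0.12 and 0.089. The small subunit protein Ptcd3 (-0.074) and the large subunit protein Gadd45gip1 (-0.091) lay below 0.

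None of the genes that serve the mitoribosome passed the test. Mitochondrial translation factors had a median of 0.0083 over 12 tested genes, 7 of them above 0, from Mtrf1, a release factor family member (-0.15), to Mtfmt, which formylates the initiator tRNA (0.25). Assembly and rRNA modification factors had a median of 0.015 over 25 genes, 14 of them above 0, from the endonuclease Ybey (-0.18) to the rRNA methyltransferase Mrm2 (0.21). Mitochondrial tRNA synthetases and the amidotransferase had a median of 0.015 over 22 genes, with 11 above 0. Fars2, for phenylalanine, had 26.1 to 31.2 CPM in HFD WT and 31.5 to 37.8 CPM in HFD Inpp4b-/- (log2 fold change 0.26, edgeR adjusted p = 0.284), and Ears2, for glutamate, lay lowest at -0.34. These 3 lists were thus centred nearer to 0 than the 77 genes, without a test of the difference. Their principal transcripts were longer, with medians of 2605.5, 1894 and 2390 bases in the same order, against 1316 bases for the 77 genes. The part of length in this was not tested.

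Genes of mitochondrial DNA replication, transcription and RNA stability had log2 fold changes from -0.32 to 0.23. The median of 13 tested genes was 0.091, and 7 lay above 0. Twnk, the replicative helicase, had 34.8 to 42.9 CPM in HFD WT and 27.7 to 34.2 CPM in HFD Inpp4b-/-, without overlap. Its log2 fold change was -0.32 (edgeR adjusted p = 0.207). On the opposite strand Mrpl43, with a log2 fold change of 0.071, shares 33.4% of its exonic bases with Twnk. How reads of the bases shared by Twnk and Mrpl43 were credited is not known. Tfam, which packages mitochondrial DNA and starts its transcription, had a log2 fold change of 0.23 (edgeR adjusted p = 0.355). Of 10 regulators of mitochondrial biogenesis, 5 lay above 0 and the median was 0.0052. Pprc1, a coactivator of NRF1, lay lowest at -0.60. HFD WT replicate 4 (39.8 CPM) stood above the other HFD WT libraries (11.9 to 22.6 CPM), and without it the value was -0.18. Myc, a transcription factor known to promote ribosome biogenesis, lay highest, with 2.84, 3.81, 2.12 and 2.34 CPM in HFD WT replicates 1 to 4 and 22.4, 4.20, 3.57 and 10.5 CPM in HFD Inpp4b-/- replicates 1 to 4. Replicates 1 and 4 of HFD Inpp4b-/- were the highest, and replicate 3 lay within the HFD WT range. The log2 fold change was 1.87 (edgeR adjusted p = 0.187) and 1.13 without HFD Inpp4b-/- replicate 1. In order of falling Myc level, HFD Inpp4b-/- replicates 1, 4, 2 and 3 had summed mitochondrial ribosomal protein transcripts of 2359, 2552, 2363 and 2645 CPM. Whether these sums follow Myc was not tested.

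The libraries held liver as labelled, with summed hepatocyte markers (Alb, Apoa1, Ttr, Tat, Cps1 and Serpina1c) of 72042 to 78541 CPM in HFD WT and 74411 to 93495 CPM in HFD Inpp4b-/-. Of the 6 hepatocyte markers, 2 had a log2 fold change above 0 (median -0.048). Alb made up most of the sum, at 54287 CPM in HFD WT and 64162 CPM in HFD Inpp4b-/- on average, while Tat lay lower in every HFD Inpp4b-/- library (362 to 882 CPM) than in any HFD WT library (1046 to 2829 CPM), with a log2 fold change of -1.08. None of the hepatocyte markers passed the test, nor did any of the tested markers of other cell types. Kupffer cell and macrophage markers summed to 30.7 to 89.9 CPM in HFD WT and 65.0 to 112 CPM in HFD Inpp4b-/- (5 of 6 above 0), stellate cell markers to 136 to 186 and 144 to 176 CPM (2 of 5), and endothelial markers to 94.7 to 120 and 80.2 to 124 CPM (1 of 4). Cholangiocyte markers summed to 4.64 to 8.75 and 3.47 to 8.23 CPM (3 of 4), lymphocyte markers to 4.14 to 7.95 and 5.78 to 8.04 CPM (3 of 3 tested), and red blood cell markers to 109 to 430 and 208 to 345 CPM (3 of 4). The lymphocyte marker Nkg7 did not pass the filter on low counts, and Cd3e was not analysed here. The sums overlapped between genotypes for every list, and their part in the small difference of the 77 genes was not tested.

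Transcript length moved with the difference. Among protein-coding tested genes, divided by principal transcript length into 4 classes of nearly equal number, the median log2 fold change was 0.056 in the class of the shortest transcripts (up to 1893 bases) and 0.0065, -0.023 and -0.044 in the classes of increasing length. Of the 77 genes, 51 fell in the shortest class and 9, 13 and 4 in the others. Their medians in the 4 classes were 0.095, 0.048, 0.063 and 0.044. Relative to the median of all protein-coding genes of the same class, the 77 genes had a median of 0.048 and 53 of them lay above 0, compared with 0.083 and 56 without this centring. The part of length in the result was not tested further.

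**Figure D5:**
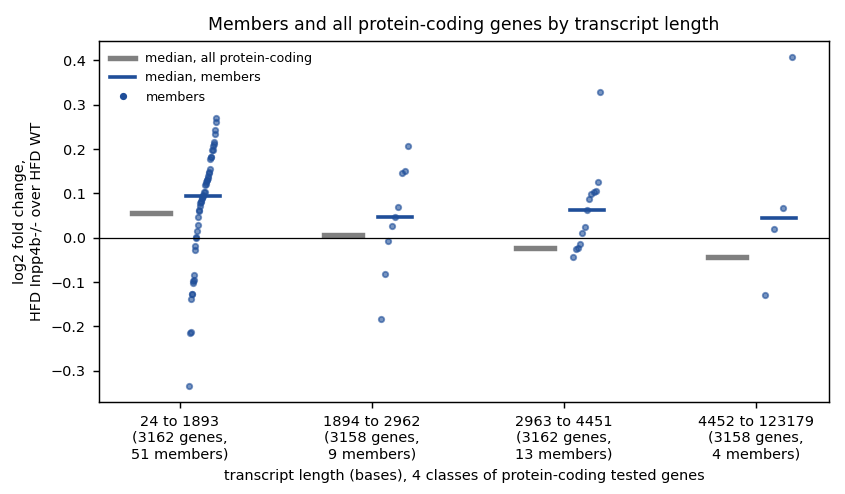
Log2 fold change of HFD Inpp4b-/- over HFD WT (vertical axis) for the 77 genes (points, spread sideways by value for legibility, with their median as a line) by class of principal transcript length in bases, beside the median of all protein-coding tested genes of the class (grey). The grey medians go from 0.056 in the shortest class to -0.044 in the longest, and the medians of the 77 genes (0.095, 0.048, 0.063 and 0.044) lie above them in each class.

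Exons of 32 of the 77 genes overlap those of another gene, 24 of them over more than 5% of their exonic bases. Over 50% was shared by 2 genes, Mrps25 and Mrps34. Mrps34 shares 63.4% with Mapk8ip3 on the opposite strand and 37.0% with Nme3 on the same strand. It had a log2 fold change of 0.016. The limits of 5% and 50% were applied to the largest overlap with a single gene, so the share with all genes together can be larger. Counts of these genes are uncertain at least to that extent.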

How the data were processed

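Liver RNA of 4 HFD WT and 4 HFD Inpp4b-/- mice was analysed. Genotype and replicate number came from the sample labels, the diet from the series' design text. The authors sequenced 150-bp read pairs, mapped them to GRCm38 by HISAT2 and deposited raw counts per gene from HTSeq, without normalization. Their second table, counts divided by a size factor, was not used. The annotation release, strand setting and tool versions are not given in the sources used here, nor were the STAR counts analysed here. Symbols, coordinates and lengths were taken from GENCODE M21, where each of the 18095 identifiers was found. The transcript length is that of the APPRIS principal transcript, with ties resolved by the basic tag, support level and length.

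The fit used edgeR 4.0.16 with TMM, filterByExpr, glmQLFit and glmQLFTest, no covariate, and adjusted by the Benjamini-Hochberg method over 14866 genes. Calls needed an adjusted p under 0.10 and a fold over 1.3, the thresholds of the study's methods. The study used these thresholds with DESeq2, not edgeR, and kept only genes that passed with both HISAT2 and STAR. Standard errors came from the F statistic. The common biological coefficient of variation was 0.251. Alternatives were DESeq2 1.42.0, other normalizations, filters and thresholds, omission of each library and a replicate block. Inpp4b was tested by an exact permutation test on log2(CPM + 0.1) over 70 arrangements. Totals of 25893430 to 36662531 counts per library gave at least 135 counts per gene described. R 4.3.3 and Python 3.11.15 were used, and the fit was tested on simulated data.

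Libraries of the same number did not deviate together (correlations of -0.114, -0.131, -0.0104 and -0.170 for numbers 1 to 4), so the main fit had no block. The genes, the lists beside them and the rule for naming were chosen with earlier results of these data known. Named genes are the called members, the 5 highest and the 5 lowest by log2 fold change and by level per kilobase, the 5 with the smallest p among those whose groups do not overlap, the Mrps18 paralogs, Mrps30, Mrps36 and Mrpl12, the members on the chromosome of Inpp4b, and of each list the called genes and the extremes. Mrps11, Mrps17, Mrpl41, Mrpl43, Mrpl49 and Mrps34 were chosen after values were seen. So were the genes of the printed promoters, the letters of the motifs and the centring by length. Ranges over the lists are descriptions without a test.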

Additional observations from a re-analysis of the deposited data

Results flagged for a closer look

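In each of 100 sets of 4 libraries of a genotype, the library farthest from the others was compared with the spread of the set. The gap to the nearest other library exceeded Dixon's 95% critical value in 4 of them, where chance alone gives about 1 in 20, or 5. The Chchd1 level of HFD WT replicate 4 was 21.4 CPM, below the nearest other HFD WT library at 23.5 CPM. For mt-Nd3, HFD WT replicate 1 had 6.08 CPM and the nearest other library 4.56 CPM. For mt-Rnr2, HFD WT replicate 4 had 2099 CPM and the nearest other library 976 CPM. The summed protein-coding genes of mitochondrial DNA had 54497 CPM in HFD WT replicate 2 and 47704 CPM in the nearest other library. No gene chosen by an Mrpl or Mrps symbol was among the 4. Chchd1 encodes a mitoribosomal protein with another symbol and is no member of that list.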

How the results depend on the processing

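The 77 genes kept a positive median and a majority above 0 under every alternative run, with medians from 0.048 to 0.107 and 51 to 62 genes above 0. The highest values came from upper quartile normalization, and the lowest median from centring on genes of the same length class, which was chosen after seeing the data. Leaving out each library in turn gave medians of 0.049 to 0.104 and 51 to 59 genes above 0, and none of these 8 fits called any of the 77 genes. Members called went from 0 to 1 (Mrps25) with DESeq2, and calls over all genes from 174 to 688. An adjusted p under 0.05 left 71 calls over all genes. Without 1 library each, calls over all genes ranged from 53 (without HFD Inpp4b-/- replicate 2) to 345 (without HFD WT replicate 2). Only the fit without HFD WT replicate 4 (148 calls) stayed within 1.5 times of 174, so calls over all genes depend on the libraries used. The replicate block left 26 calls over all genes, none of them among the 77 genes, whose median was 0.084 with 55 above 0. The replicate numbers share only a number here.

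Of 602 values of 43 named genes under the alternatives, 586 kept their sign and side of the threshold. DESeq2 brought Mrps25 (0.40), Myc (1.87) and mt-Atp6 (0.82) past it. The sign turned in 13 values of 6 genes. Upper quartile normalization gave 0.0012 for Mrpl47 and 0.011 for Mrps30. Leaving out 1 library gave at most 0.031 for Mrpl38 (lowest -0.11), 0.045 for Mrpl47 (lowest -0.11) and 0.12 for Mrps30 (lowest -0.11), and between -0.16 and 0.14 for mt-Nd3. Without HFD WT replicate 4, mt-Rnr1 was at 0.16 and mt-Rnr2 at 0.26 (lowest otherwise -0.22 and -0.36). The cause of these turns was not tested. The Inpp4b log2 difference ranged from 0.041 to 0.655.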
